A study of Abies pinsapo with 24 samples.

Results

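Spring needles of Abies pinsapo, the Spanish fir, were compared between the upper and the lower edge of its forest in the Sierra de las Nieves. The comparison rests on 5 of the 24 RNA sequencing libraries of the series, chosen by their labels for organ, season and site. The upper group holds 2 libraries from Ronda (1700 to 1800 m, trees 4 and 5) and the lower group 3 libraries from Yunquera (1100 to 1200 m, trees 1, 2 and 3). All were needles of untreated adult trees of 30 to 50 years, harvested in May 2023. A further library labelled as spring needles of Ronda (tree 6) was set aside: photosystem features took 0.0359% of its counts, against 3.89 to 5.53% in the 5 libraries used and 0.0354 to 0.0693% in the spring roots of Yunquera. Among the spring roots of Ronda, 2 libraries held 0.0392 and 0.044%, but the library labelled as roots of tree 5 held 3.14%, so another spring label of Ronda goes against its transcripts; roots enter no comparison here. Autumn needles from September 2022, 3 libraries a site from trees 1 to 6, served as the other harvest. Each site had its own trees, so altitude, the other conditions of a site and the trees themselves cannot be told apart. The p-values measure only the spread between the needle libraries of these trees over both harvests, with trees 1 to 5 in each.

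Firs keep their needles for several years, and in spring new shoots begin to grow beside the old foliage. Plants short of phosphate sense it through SPX proteins, free it from phosphate esters with phosphatases, move it between cells, and replace membrane phospholipids with sulpholipids and galactolipids. Foliage in strong light makes early light-induced proteins, which bind free chlorophyll, and ascorbate, which scavenges oxidants. Small heat shock proteins keep unfolded proteins in solution, and raffinose sugars and dehydrins accumulate in cold or dry tissue. Gene names below are the best database hits of fir features in other species, and the roles given are those known there. Levels are library-scaled counts in CPM (per 1e6 counts of a library), which compare libraries but not genes of different length. In bulk needles, fewer cells of a type and less RNA per cell cannot be told apart.

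The 5 libraries held 19185342 to 23519757 counts. Photosystem features took 3.89 and 5.25% at Ronda and 4.36 to 5.53% at Yunquera. The root marker list took 0.0206 and 0.0328% at Ronda and 0.00874 to 0.0294% at Yunquera, while spring roots of Yunquera held 0.00712 to 0.022%, so this list did not tell the organs apart. Features whose best hit is a filamentous fungus took 0.369 and 0.257% in trees 1 and 2 and 0.163 to 0.173% in the other 3 trees. The pollen list took 0.176 and 0.121% in trees 1 and 2 and 0.0339 to 0.0423% in the others. The part of these shares in the site differences was not tested.

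No feature passed edgeR's quasi-likelihood test of the site difference at an adjusted p of 0.05 (0 of 20560 tested, 0%), and the smallest adjusted p was 0.0726. This fit drew its spread from the 11 needle libraries of both harvests and took libraries of the same tree as independent. In the 5 spring libraries alone the smallest edgeR adjusted p was 0.294. At an unadjusted p under 0.05, 1065 features stood higher at Ronda (5.18%) and 1088 lower (5.29%). DESeq2, run as an alternative on the same 11 needle libraries, called 313 features higher (1.68% of the 18657 with an adjusted p) and 301 lower (1.61%). Both Ronda libraries lay above all 3 Yunquera libraries for 2463 features (12%) and below all of them for 2578 (12.5%). Such features are called apart here, and the gene lists are read against these shares. Tree 3 was the Yunquera tree nearest to Ronda for 43.4% of the features apart and higher and 45.2% of those apart and lower. Without tree 3, 4782 features would be apart and higher and 5146 apart and lower, in part because fewer libraries overlap less often.

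Features of phosphate economy stood higher at Ronda, among them sensors, lipid-remodelling enzymes, and some of the phosphatases and carriers. This list was written after values had been seen. Of 135 annotated members 72 were tested, and 31 of these were apart and higher (43.1%) and 3 apart and lower (4.17%). The median log2 fold change was 0.52, against -0.03 over all features, and 0.32 without tree 5. DESeq2 called 20 members higher and none lower, beside 1.68 and 1.61% of all features with an adjusted p. At an unadjusted edgeR p under 0.05, 25 members stood higher and 1 lower, beside 5.18 and 5.29% of all features. The members summed to 4973 and 7193 CPM at Ronda and to 2977, 2663 and 2398 CPM at Yunquera. In autumn 30 members were apart and higher, beside 15.6% of all features, and 26 of the 30 were apart and higher in spring too. The broader list of iron, sulphur and phosphate, which shares 40 members with it, had 20 of 73 apart and higher (27.4%) and 8 apart and lower (11%), with a median of 0.18 that was -0.04 without tree 4.

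SPX proteins hold back the transcription factors of phosphate starvation while phosphate is ample. SPX1 (Gene_62996) stood at 3.63 and 32.8 CPM in trees 4 and 5 of Ronda and at 0.508, 0.901 and 1.23 CPM at Yunquera, a log2 difference of 4.36 ± 0.92 (SE; edgeR adjusted p = 0.146, DESeq2 adjusted p = 0.000748). SPX2 (Gene_21250) stood at 191 and 392 CPM against 107, 70.7 and 28.4 CPM. SPX4 (Gene_38196) stood at 17.1 and 32.1 CPM against 4.77, 4.5 and 1.61 CPM. The sites did not overlap for any of the 3, and tree 5 was the highest each time.

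Glycerophosphodiester phosphodiesterases free glycerol phosphate from deacylated phospholipids. GDPD2 (Gene_29207, reference sequence ap_20372, bases 1 to 2289) stood at 118 and 175 CPM at Ronda and at 17.4, 9.32 and 8.9 CPM at Yunquera. The log2 difference was 3.63 ± 0.49 (edgeR adjusted p = 0.0726, DESeq2 adjusted p = 4.07e-09). GDPD1 (Gene_7333) stood at 177 and 399 CPM against 52.7, 28.2 and 11.8 CPM. Both were apart in autumn too, by 2.77 and 3.43 on the log2 scale. SQD1, which makes the head group of sulpholipids, had both tested features apart: Gene_18308 stood at 120.0 and 246 CPM against 50.0, 44.7 and 29.5 CPM. Gene_67004 stood at 11.6 and 30.3 CPM against 6.09, 5.31 and 4.34 CPM. The galactolipid synthase DGD1 (Gene_25179) was apart by little, at 5.92 and 5.95 CPM against 3.76, 4.91 and 2.95 CPM.

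Purple acid phosphatases cut phosphate from organic esters, and their copies differed from one another. PAP4 (Gene_28929) stood at 185 and 333 CPM at Ronda and at 44.3, 24.3 and 11.4 CPM at Yunquera, a log2 difference of 3.28 ± 0.54 (edgeR adjusted p = 0.0867, DESeq2 adjusted p = 1.65e-06). PAP15 (Gene_81638) stood at 149 and 399.8 CPM against 66, 44.2 and 25.6 CPM. Both were apart in the same direction in autumn. For PAP27, whose hit is named a probably inactive member, the Yunquera trees hardly differed: Gene_31516 stood at 86.4 and 131 CPM against 34.4, 36.1 and 36.7 CPM. Gene_38163 stood at 70.7 and 159.7 CPM against 31.2, 36.5 and 32.6 CPM. Other copies overlapped between the sites. The further PAP4 feature Gene_3540 stood at 531 and 350.1 CPM against 447, 525 and 393 CPM, and PAP3 (Gene_17917) at 81.9 and 71.8 CPM against 59.7, 81.3 and 80.6 CPM.

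Several features are named inorganic pyrophosphatase 2 (At1g17710), a phosphatase induced by phosphate starvation in Arabidopsis thaliana. The feature on ap_85965 (bases 1 to 1782) stood at 602 and 1000 CPM at Ronda and at 131, 120.5 and 62.5 CPM at Yunquera, a log2 difference of 2.94 ± 0.47 (edgeR adjusted p = 0.0838, DESeq2 adjusted p = 1.15e-06). Gene_6307 stood at 352 and 539 CPM against 77.9, 64.8 and 54.3 CPM, a log2 difference of 2.76 ± 0.45. In autumn the differences were 5.27 and 5.40, with Yunquera at 9.52 to 13.7 CPM and 4.32 to 7.93 CPM. The spring difference of Gene_6307 minus the autumn one was -2.64 on the log2 scale (edgeR adjusted p = 0.418, DESeq2 adjusted p = 0.00739). Gene_7694, of the same name, overlapped at 70.8 and 56.8 CPM against 56.5, 79.4 and 58.5 CPM.

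Carriers of phosphate were divided. The mitochondrial carrier MPT3 (Gene_37600) stood at 14.6 and 36.2 CPM at Ronda and at 2.69, 1.31 and 0.858 CPM at Yunquera. PHO1-2 (Gene_71558), of a family that exports phosphate from cells, stood at 11.6 and 14 CPM against 4.67, 5 and 5.09 CPM, a log2 difference of 1.38 ± 0.27 (edgeR adjusted p = 0.128, DESeq2 adjusted p = 0.000283). These were apart in both seasons. The MPT3 feature Gene_4442 overlapped, at 356 and 316 CPM against 260.0, 311 and 413 CPM. So did the uptake transporter PHT1-7 (Gene_19991), at 143 and 122 CPM against 345, 171 and 105 CPM.

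**Figure D1:**
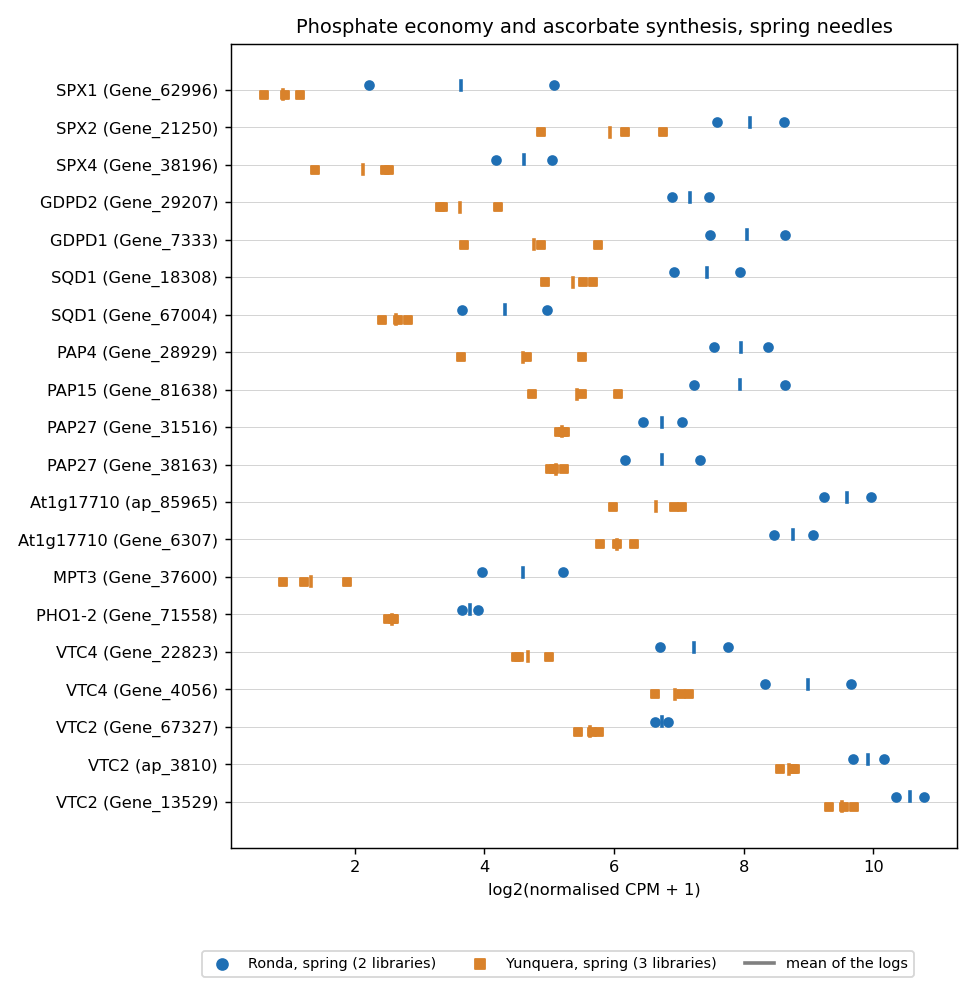
Level of 20 features of phosphate economy and ascorbate synthesis in each spring needle library, as log2(CPM + 1) on the horizontal axis, with 2 circles for Ronda, 3 squares for Yunquera and a bar at the mean of the logs. In all 20 features, which were picked for display from those apart, both circles lie to the right of the squares.

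Ascorbate synthesis also had members that stood higher at Ronda, foremost GDP-L-galactose phosphorylase VTC2, the step that controls its rate in Arabidopsis thaliana. In this list, likewise written after values had been seen, 10 of 22 tested members were apart and higher (45.5%) and none apart and lower. VTC2 (Gene_67327) stood at 113 and 98.3 CPM at Ronda and at 49.5, 53.4 and 42.7 CPM at Yunquera. Its log2 difference of 1.12 ± 0.15 had an edgeR adjusted p of 0.0726 and a DESeq2 adjusted p of 4.07e-09. The VTC2 feature on ap_3810 (bases 56 to 3078) stood at 1146 and 820.5 CPM against 431, 443 and 376 CPM, and Gene_13529 at 1771 and 1300 CPM against 639, 746 and 837 CPM. All 3 were apart in autumn, by 1.34, 1.28 and 1.19 on the log2 scale. Yet the VTC2 feature Gene_13471 overlapped, at 259 and 312 CPM against 299.7, 252 and 186 CPM.

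The inositol-phosphate phosphatase VTC4 acts in both ascorbate and inositol synthesis and was counted in both lists. Gene_22823 stood at 104 and 216 CPM at Ronda and at 22.1, 30.8 and 21.5 CPM at Yunquera, a log2 difference of 2.69 ± 0.37 (edgeR adjusted p = 0.0726, DESeq2 adjusted p = 2.4e-08). Gene_4056 stood at 320.2 and 803 CPM against 98.3, 130.3 and 142 CPM. The 3 VTC2 features and these 2 were the 5 members that DESeq2 called, beside 1.68% of all features called higher and 1.61% lower. Gene_38402, named after a retrotransposon protein, lay on another reference sequence and had levels close to those of Gene_22823, at 111 and 218 CPM against 22.2, 28.6 and 24.8 CPM; whether the features share reads was not tested. The later enzymes overlapped: GLDH1 (Gene_15940), the last step, stood at 83.5 and 103 CPM against 82.2, 91.8 and 89 CPM.

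Early light-induced proteins and carotenoid genes had 11 of 35 tested members apart and higher at Ronda (31.4%) and none apart and lower, with a median log2 fold change of 0.40. ELIP2 (Gene_44285) stood at 38.2 and 92.3 CPM at Ronda and at 1.17, 2.79 and 17.7 CPM at Yunquera, a log2 difference of 3.18 ± 0.99 (edgeR adjusted p = 0.321, DESeq2 adjusted p = 0.0271). Gene_71524 stood at 7.44 and 6.74 CPM against 0.355, 0.585 and 2.14 CPM. Gene_5671 stood at 21.7 and 20.9 CPM against 1.22, 2.66 and 12.2 CPM. Tree 1 was the lowest and tree 3 the highest of Yunquera in each. The same order held in 2 features chosen after their values were seen. Gene_2963 stood at 2795 and 2175 CPM against 219.6, 1071 and 1712 CPM. ELIP1 (Gene_8363) stood at 549.9 and 287 CPM against 8.07, 51.1 and 278 CPM, where tree 5 and tree 3 almost met. Other members of the list overlapped. A further ELIP1 feature stood at 4.06 and 2.98 CPM against 0.406, 2.03 and 3.91 CPM. Gene_79205 stood at 71.5 and 33.7 CPM against 0.254, 5.31 and 42.6 CPM.

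In autumn these proteins stood further apart. Gene_2963 stood at 2867, 4646 and 5078 CPM at Ronda and at 271, 236 and 315 CPM at Yunquera, a log2 difference of 3.94 against 1.31 in spring. ELIP1 differed by 6.79 in autumn and 1.90 in spring; the change of -4.89 between the harvests had an edgeR adjusted p of 0.571 and a DESeq2 adjusted p of 0.0158. At an unadjusted interaction p under 0.05, 9 members of the list had a smaller difference in spring and 1 a larger one, beside 3.8 and 2.86% of all features. No feature passed the interaction test in edgeR after adjustment (0%), where the smallest adjusted p was 0.161 and 1369 features had an unadjusted p under 0.05; DESeq2 called 221. The photoprotective protein PSBS on ap_70499 stood at 6.49 and 6.68 CPM against 1.22, 2.52 and 4.72 CPM in spring and was apart in autumn too.

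Small heat shock proteins stood higher at Ronda in spring and did not in autumn. Of 33 tested members 14 were apart and higher in spring (42.4%) and 3 apart and lower (9.09%), with a median log2 fold change of 1.07. In autumn 4 were apart and higher and 5 apart and lower, with a median of -0.25, beside 15.6 and 12.6% of all features. DESeq2 called 9 higher in spring and none lower, beside 1.68 and 1.61% of all features with an adjusted p. At an unadjusted interaction p under 0.05, 11 members had a larger difference in spring and none a smaller one. Over all features these shares were 2.86 and 3.8%.

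Tree 4 carried the highest levels of most members named here. HSP17.7 (Gene_7362), whose hit is a class II protein of the cytosol, stood at 186 and 70.9 CPM in trees 4 and 5 and at 34.4, 34 and 40.7 CPM at Yunquera, a log2 difference of 1.82 ± 0.37 (edgeR adjusted p = 0.141, DESeq2 adjusted p = 0.000701). In autumn it stood at 7.54, 7.78 and 7.43 CPM at Ronda and at 20.5, 11.8 and 11.6 CPM at Yunquera, so the order of the sites turned. The chloroplast protein HSP23 (Gene_12495) turned likewise, from 83.7 and 39.2 CPM against 17.3, 13.3 and 25.6 CPM in spring to 5.84, 5.2 and 7.69 CPM against 12, 9.19 and 11.8 CPM in autumn. A further HSP17.7 feature on ap_85686 stood at 7.78 and 5.17 CPM against 0.914, 1.58 and 1.29 CPM and kept its direction in autumn. The whole list summed to 1487 CPM in tree 4 but to 849.8 CPM in tree 5, within the 794, 885 and 807 CPM of Yunquera. The most abundant member, SHSP-2 (Gene_4419, named after its values were seen), was apart and lower at 433 and 432 CPM against 501, 611 and 466 CPM. Without it the list summed to 1055 and 418 CPM at Ronda and to 293, 274 and 341 CPM at Yunquera, and the sites did not overlap. Without tree 4 the median of the list was 0.46, and without tree 5 it was 1.61.

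**Figure D2:**
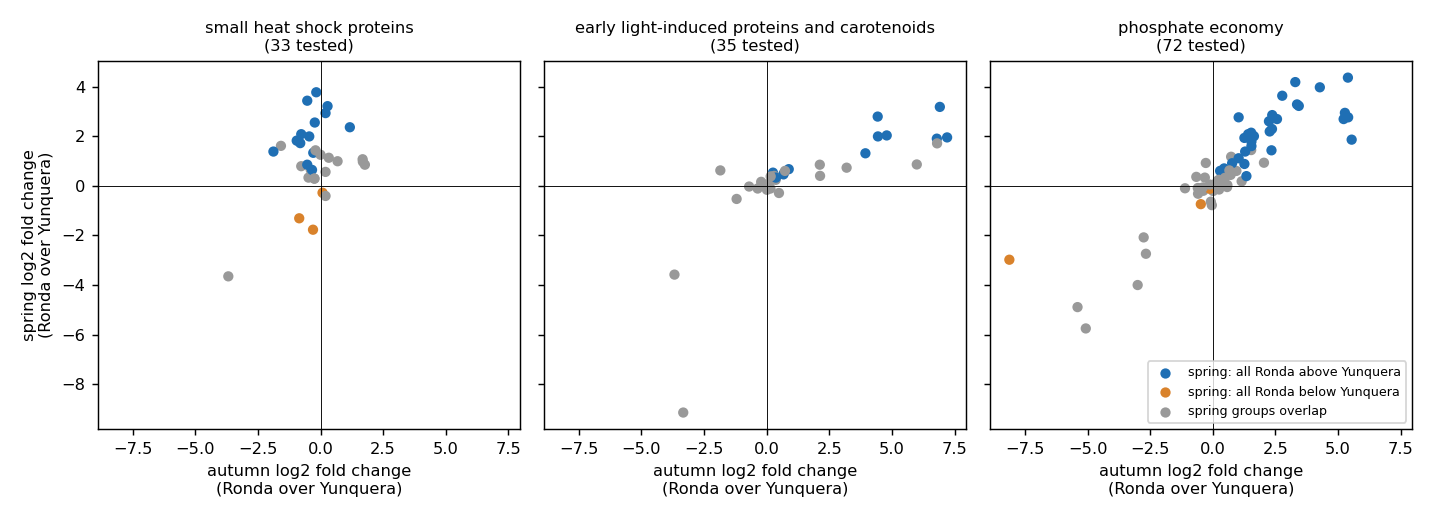
Site difference of each tested member of 3 lists in autumn (horizontal axis) and spring (vertical axis), as log2 fold change of Ronda over Yunquera, coloured by whether the spring libraries of the sites overlap. Small heat shock proteins spread along the vertical axis, with medians of 1.07 in spring and -0.25 in autumn, while the members of the other 2 lists with large spring differences mostly differ in the same direction in autumn.

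Among larger chaperones and heat factors, 9 of 55 tested members in spring were apart and higher (16.4%) and 5 apart and lower (9.09%), with a median of 0.06. In autumn 1 was apart and higher and 13 apart and lower, beside 15.6 and 12.6% of all features, with a median of -0.16. At an unadjusted interaction p under 0.05, 9 members had a larger difference in spring and none a smaller one, against 2.86 and 3.8% of all features. HSP70-17 (Gene_76972) stood at 21.2 CPM in both Ronda libraries and at 11.1, 11.1 and 7.34 CPM at Yunquera, while HSP70-1 (Gene_14157) stood at 5.53 and 5.11 CPM against 17.7, 12.8 and 9.65 CPM. In the abscisic acid list 3 of 22 members were apart and higher (13.6%) and 4 apart and lower (18.2%). CYP707A4 (Gene_40730), which breaks the hormone down, stood at 99.3 and 41.3 CPM against 21.7, 22.9 and 25.9 CPM in spring, and in autumn every Ronda library lay below the 12, 10.2 and 16 CPM of Yunquera, trees 4 and 5 at 8.44 and 8.32 CPM. The receptor PYL4 (Gene_67291) stood at 5.01 and 2.19 CPM against 14.5, 16.7 and 9.11 CPM.

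In cellulose and hemicellulose synthesis 13 of 35 tested members were apart and higher at Ronda (37.1%) and 2 apart and lower (5.71%), with a median of 0.54, 0.26 without tree 5 and 0.83 without tree 3. The list shares 9 members with the secondary wall list below, COBL4 among them; of the 26 others 9 were apart and higher (34.6%) and 1 apart and lower (3.85%). The glucomannan synthase CSLA9 (Gene_10609) stood at 233 and 156 CPM at Ronda and at 39.6, 33.4 and 80.2 CPM at Yunquera. CSLB2 on ap_1268 stood at 11.9 and 23.7 CPM against 6.14, 3.96 and 4.07 CPM. CSLH3 (Gene_80864) rested on tree 5, at 6.44 and 38.4 CPM against 1.83, 3.87 and 3.75 CPM.

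Wall loosening had 33 of 134 members apart and higher (24.6%) and 17 apart and lower (12.7%), the latter near the 12.5% of all features. In autumn 42 members were apart and higher and 5 apart and lower, beside 15.6 and 12.6% of all features, with a median of 0.92. Expansins let walls yield to turgor as cells grow. EXPA1 on ap_34612 (bases 1 to 629) stood at 21.8 and 16.6 CPM at Ronda and at 0.711, 0.585 and 1.5 CPM at Yunquera, a log2 difference of 4.36 ± 0.64 (edgeR adjusted p = 0.0726, DESeq2 adjusted p = 5.37e-10). EXPA8 (Gene_10716) stood at 38.7 and 32.4 CPM against 1.02, 3.6 and 2.09 CPM, a log2 difference of 3.99 ± 0.61 (edgeR adjusted p = 0.0749, DESeq2 adjusted p = 2.24e-08). These 2 features were the only calls when limma fitted the tree as a random block. Both stood under 3 CPM in every autumn library and were apart and higher at Ronda there too. In autumn EXPA1 stood at 0.955, 0.458 and 0.552 CPM against 0, 0.0554 and 0 CPM, and EXPA8 at 1.54, 1.25 and 2.68 CPM against 0, 0 and 0.052 CPM. The median of the wall loosening list in spring was 0.56, but 0.08 without tree 5, 0.34 without tree 4, 0.37 without tree 1 and 1.06 without tree 3.

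Secondary wall features, a list written after values had been seen, were high in tree 4 above all. Of 18 tested members 10 were apart and higher (55.6%) and 1 apart and lower (5.56%). Neither edgeR nor DESeq2 called any after adjustment. An unadjusted edgeR p under 0.05 was found for 5, all higher, beside 5.18% of all features higher and 5.29% lower. CESA8 (Gene_67466), a cellulose synthase subunit of wood walls, stood at 347 and 64.7 CPM in trees 4 and 5 and at 4.11, 14.9 and 47.3 CPM at Yunquera. CESA4 (Gene_64405) stood at 183 and 32.5 CPM against 2.33, 6.98 and 25.5 CPM. COBL4 (Gene_36571) stood at 168 and 27.7 CPM against 1.02, 6.3 and 19.6 CPM. Tree 5 was closer to tree 3 than to tree 4 in these 3, and their log2 differences of 3.22, 3.22 and 3.45 had standard errors of 1.38, 1.27 and 1.48. The lignin laccase LAC4 (Gene_53987) stood at 29.2 and 4.16 CPM against 0, 1.35 and 2.41 CPM, and NAC007 (Gene_47098), of a family that switches on vessel formation, at 28.1 and 8.65 CPM against 0, 1.49 and 4.66 CPM. The list's median was 2.04, 1.36 without tree 4 and 3.53 without tree 3.

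**Figure D3:**
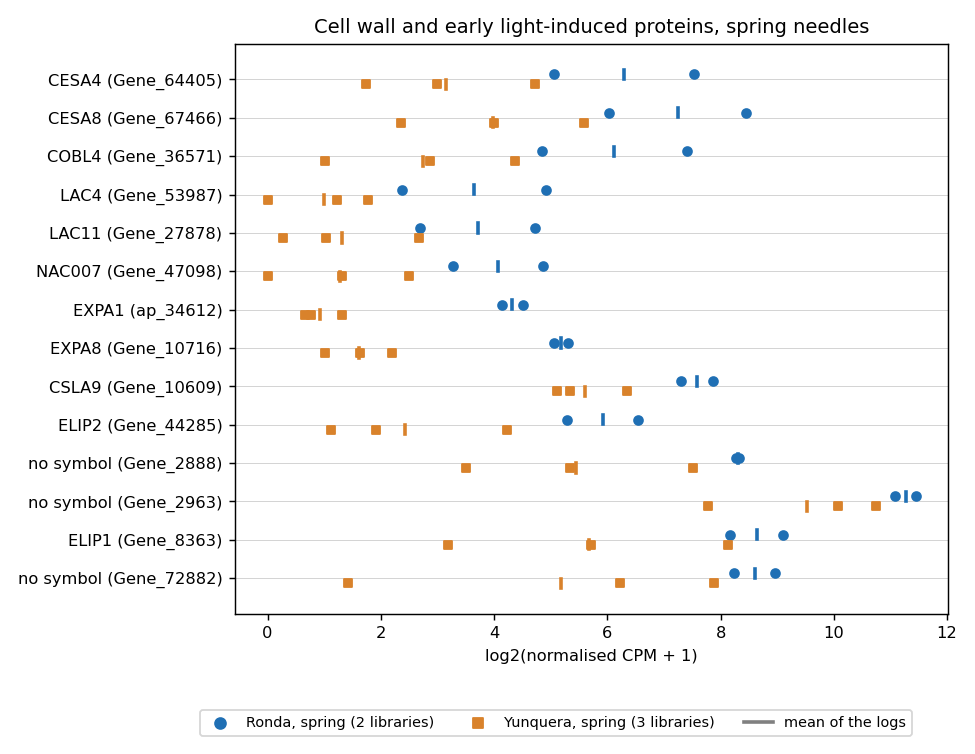
Level of 14 features of the cell wall and of early light-induced proteins in each spring needle library, as log2(CPM + 1), with circles for Ronda, squares for Yunquera and bars at the mean of the logs. EXPA1 and EXPA8 lie well apart, while for CESA4, CESA8 and ELIP1 the highest Yunquera tree comes close to the lower Ronda tree.

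Phenylpropanoid and lignin genes had 19 of 76 tested members apart and higher (25%) and 1 apart and lower (1.32%). C4H2 (Gene_12162), an early enzyme of the pathway, stood at 269.8 and 252 CPM at Ronda and at 11.4, 73.5 and 58.6 CPM at Yunquera. The ligase 4CL (Gene_8725) stood at 196 and 113 CPM against 55.1, 74.3 and 71.8 CPM, and CCR1 (Gene_9866), which leads into lignin, at 62.8 and 113 CPM against 34, 49.3 and 43.2 CPM. The median was 0.34, but 0.09 without tree 5 and 0.63 without tree 3. The flavonoid list had 2 of 110 members apart and higher (1.82%) and 8 apart and lower (7.27%), both under the background. Dihydroflavonol 4-reductase on ap_61230 stood at 51.3 and 49.9 CPM against 223, 116 and 63.3 CPM.

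Sugar genes stood apart in both directions. Of 48 tested members for sucrose, raffinose and trehalose 14 were apart and higher (29.2%) and 9 apart and lower (18.8%). Raffinose synthase RFS on ap_60466 (bases 6 to 1730) stood at 549.6 and 509.8 CPM at Ronda and at 153, 80.6 and 182 CPM at Yunquera, a log2 difference of 1.94 ± 0.30 (edgeR adjusted p = 0.0796, DESeq2 adjusted p = 2.01e-06). Galactinol synthase makes the galactose donor for raffinose, and 3 of its features were named after values had been seen. GOLS2 (Gene_10499) stood at 258 and 276 CPM against 8.48, 88.1 and 114 CPM and GOLS1 on ap_34676 at 125 and 162 CPM against 4.47, 41 and 36 CPM, with tree 1 far under the other trees. The GOLS1 feature Gene_3454 stood the other way, at 1550 and 1973 CPM against 3218, 2665 and 2472 CPM. The invertase INVB (Gene_70430) stood at 18.8 and 47.3 CPM against 9.03, 12.5 and 14.7 CPM. TPS6 (Gene_11901), a trehalose phosphate synthase, stood at 66.7 and 66.4 CPM against 199.6, 148 and 122 CPM, a log2 difference of -1.23 ± 0.27 (edgeR adjusted p = 0.167, DESeq2 adjusted p = 0.00232).

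Dehydrins and LEA proteins leaned lower at Ronda, with 9 of 33 tested members apart and lower (27.3%) and 2 apart and higher (6.06%). Gene_18854, with a dehydrin domain and no best hit (ap_12747, bases 1 to 678), stood at 34.7 and 25.5 CPM at Ronda and at 172, 117 and 104 CPM at Yunquera. Its log2 difference of -2.12 ± 0.27 had an edgeR adjusted p of 0.0726 and a DESeq2 adjusted p of 2.74e-11. In autumn it stood at 159, 168 and 189 CPM against 648, 456 and 552 CPM, so both sites were higher in autumn and kept their order. The dehydrin Gene_5437 stood at 42.7 and 21.5 CPM against 98.2, 151 and 109.8 CPM in spring and overlapped in autumn. The LEA protein Gene_7231 stood higher at Ronda, at 34.4 and 43.2 CPM against 14.1, 13.7 and 28.6 CPM. The list's median was -0.17, but -0.59 without tree 5, -0.31 without tree 4 and 0 without tree 2.

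Among regulators, small MYB proteins named RADIALIS-like stood far higher at Ronda in both seasons. They resemble RADIALIS of Antirrhinum majus, which shapes flower asymmetry, and the list of 6 was written after values had been seen. RL5 on ap_71523 stood at 38 and 31.9 CPM at Ronda and at 1.07, 2.48 and 0.858 CPM at Yunquera, a log2 difference of 4.56 ± 0.70 (edgeR adjusted p = 0.0749, DESeq2 adjusted p = 2.42e-08). The RL5 feature Gene_35668 stood at 35.5 and 25.8 CPM against 0.355, 1.71 and 2.04 CPM, and RL1 (Gene_74740) at 10.7 and 5.22 CPM against 0, 0 and 0.107 CPM. In all, 5 of the 6 were apart and higher in spring and in autumn, beside 12 and 15.6% of all features. RAD (Gene_10637) overlapped in spring at 28.1 and 22.6 CPM against 25.6, 35.9 and 23.9 CPM.

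RAM1 (Gene_21645), a GRAS factor needed for arbuscular mycorrhiza in Medicago truncatula, stood at 33.4 and 51.3 CPM at Ronda and at 7.51, 10.5 and 9.92 CPM at Yunquera. Its log2 difference was 2.18 ± 0.28 (edgeR adjusted p = 0.0726, DESeq2 adjusted p = 1.5e-09). A RING1-like ubiquitin ligase (Gene_13416) stood at 188 and 128 CPM against 59.3, 50.3 and 45.1 CPM in spring, and overlapped in autumn at 59.6, 47.3 and 45.5 CPM against 60.3, 52.6 and 51.3 CPM. Its difference between the harvests was 1.73 on the log2 scale (edgeR adjusted p = 0.176, DESeq2 adjusted p = 1.28e-05). SPL15 (Gene_19795), of a family that sets the passage between growth phases, stood at 61 and 73.2 CPM against 27.5, 35 and 35.5 CPM. The jasmonate and ethylene list had 13 of 106 members apart and higher (12.3%) and 14 apart and lower (13.2%), near the background. Among its members apart and lower were the response factors ERF073 (Gene_13876), at 9.97 and 6.18 CPM against 34, 30.7 and 18.6 CPM, and ERF2 (Gene_76550), at 2.81 and 2.41 CPM against 10.1, 17.5 and 20.4 CPM.

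Further features stood lower at Ronda. The catalase CAT2 (Gene_3546), which breaks down hydrogen peroxide, stood at 736 and 292 CPM at Ronda and at 3013, 2907 and 1000 CPM at Yunquera, a log2 difference of -2.17 ± 0.71 (edgeR adjusted p = 0.343, DESeq2 adjusted p = 0.0295). The CAT2 feature Gene_5667 stood at 26.2 and 233 CPM against 1076, 786 and 392 CPM. Tree 3 lay nearest to Ronda in both. The antioxidant enzyme list had 14 of 120 members apart and higher (11.7%) and 15 apart and lower (12.5%), near the background. A histone H2A (Gene_3062) stood at 7.11 and 6.29 CPM against 40.4, 45.5 and 98.2 CPM, while the replication clamp PCNA (Gene_8877) stood higher at Ronda, at 20.9 and 14 CPM against 1.62, 4.59 and 6.06 CPM. Ribosomal proteins had 28 of 253 members apart and lower (11.1%), near the 12.5% of all features, and 3 apart and higher (1.19%, against 12%), with a median of -0.33 that was -0.04 without tree 3, where they summed to 45290 CPM against 24907 to 31884 CPM in the other 4 trees.

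Few photosynthesis features were apart between the sites. Photosystems had 3 of 59 tested members apart and higher (5.08%) and 2 apart and lower (3.39%), and the Calvin cycle 1 of 20 in each direction (5%). The log2 difference was negative for 41 photosystem and 14 Calvin cycle members. Both medians were -0.14. Without tree 5 they were -0.49 and -0.34, and without tree 4 they were -0.01 and -0.09. Rubisco activase RCA1 (Gene_3029) stood at 8580 and 15409 CPM at Ronda and at 10159, 18185 and 13605 CPM at Yunquera, and the aldolase FBA1 (Gene_4041) at 12013 and 16447 CPM against 11496, 16476 and 16378 CPM. Of the 10 features with the most counts only the 2 metallothioneins, small proteins that bind metals, were apart. MT1A on ap_7545 stood at 4971 and 4270 CPM against 6142, 8138 and 6819 CPM, and EMB30 on ap_2305 at 6288 and 3570 CPM against 7013, 6901 and 7453 CPM. Terpenoid genes had 2 of 48 members apart in each direction (4.17%), and disease resistance receptors 13 of 176 apart and higher (7.39%) and 11 apart and lower (6.25%).

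**Figure D4:**
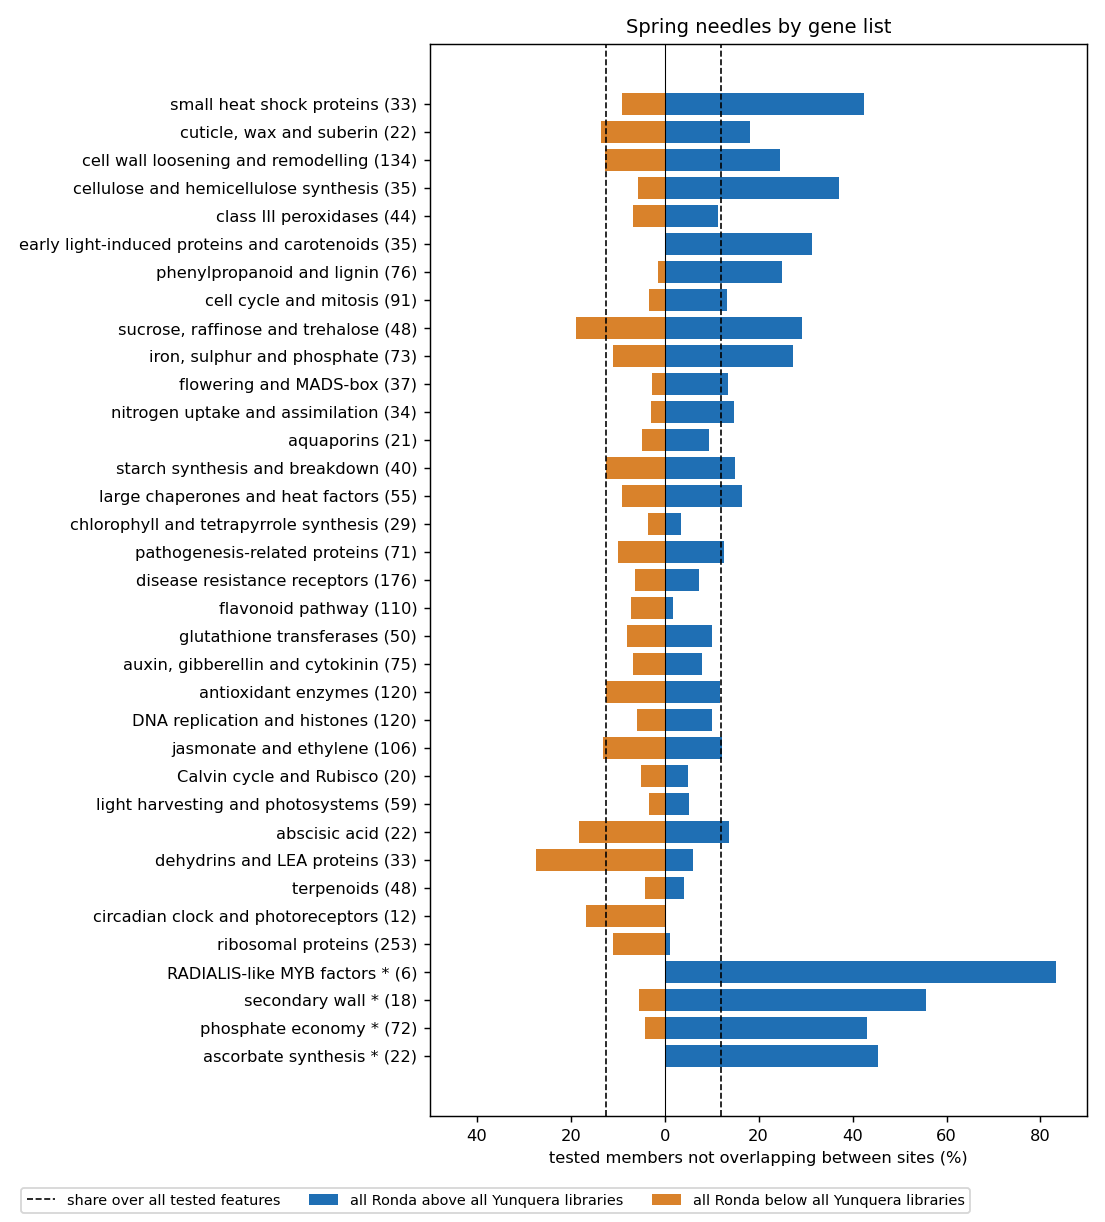
Share of the tested members of each gene list (number tested in brackets) whose spring libraries do not overlap between the sites, with Ronda above Yunquera to the right and below it to the left; dashed lines mark the 12 and 12.5% of all features, and an asterisk marks lists written after values had been seen. Small heat shock proteins reach 42.4% to the right and dehydrins and LEA proteins 27.3% to the left.

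Some features were read at one site only. SUMM2 (Gene_75900), a disease resistance receptor, stood at 5.53 and 9.83 CPM at Ronda and had no read in the 3 Yunquera libraries, nor in those of autumn, where Ronda stood at 10.7, 18.7 and 7.52 CPM. Against a floor of 3 reads over the Yunquera libraries the log2 difference was at least 7.32. A feature without a hit on ap_90676 (bases 1 to 3187) stood at 17.9 and 14.4 CPM against 0, a log2 difference of at least 8.39. RUN1 (Gene_63180), also a resistance receptor, had no read at Ronda and stood at 8.83, 13.2 and 23.9 CPM at Yunquera. Different trees stood at the sites, so site and inherited differences between trees cannot be told apart here.

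Other features with no read at Ronda rested on 1 Yunquera tree and had hits outside plants. The alcohol oxidase AOX1 (Gene_58013) stood at 308 CPM in tree 1 and at 1.22 and 0.697 CPM in trees 2 and 3, and ATO2 (Gene_58723) at 0.254, 26.1 and 0.214 CPM. The 400 tested features with a hit in filamentous fungi had a median log2 fold change of -3.88 in spring and -4.75 in autumn, with 64 apart and lower (16%, against 12.5% of all features) and 13 apart and higher (3.25%, against 12%). Such features could pass the filter on low counts through trees 1 and 2 alone, so these medians do not measure a site difference. In spring fungal hits took 0.369 and 0.257% of counts in those trees, but 0.163% in tree 3 and 0.166 and 0.173% at Ronda. The 11659 features with a hit in land plants had a median of 0.01. Features named after the birch pollen allergen Bet v 1, whose family includes defence proteins of leaves, were high in trees 1 and 2 alike: Gene_5603 stood at 160.4 and 84.8 CPM against 638, 599 and 171 CPM.

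The autumn harvest repeated part of the spring differences. Over all tested features 15.6% were apart and higher in autumn and 12.6% apart and lower, beside 12 and 12.5% in spring. Autumn set 3 libraries against 3 and spring 2 against 3, and fewer libraries overlap less often. These shares therefore do not compare how far the sites differed in the 2 harvests. The shares and counts below are to be read against those of their own harvest. Of the 2463 features apart and higher in spring 868 were so in autumn, which is 35.2% of the spring features and 27.1% of the 3200 autumn ones; 123 were apart in the opposite direction. Of the 2578 apart and lower in spring 713 were so in autumn, 27.7% of the spring and 27.6% of the autumn features, while 136 were apart in the opposite direction. The biological replicate numbers of the labels were taken as trees. On that reading trees 1 to 5 gave needles to both harvests, so the harvests are not independent trees. Of the features DESeq2 called in spring, 193 of 313 higher and 143 of 301 lower were apart in the same direction in autumn, in a fit that shares its spread between the harvests.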

How the data were processed

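Needle RNA of single trees was sequenced, and the authors deposited 1 table of raw counts for 51046 features in 24 libraries; reads were mapped with HISAT2 and counted with featureCounts, per the submitters' processing notes. Tool versions and the build were not given in the sources used here. Per the labels' protocols, needles and roots were extracted by different methods and libraries were directional or not, without saying which. edgeR 4.0.16 (quasi-likelihood, TMM scaling, filterByExpr with a minimum count of 10 and a total of 15) was fitted to the 11 needle libraries of 4 groups, with Benjamini-Hochberg adjustment over the 20560 features left, for the site difference in spring and its interaction with season. The standard errors given (±) were back-calculated as the absolute log2 difference over the square root of edgeR's F statistic. DESeq2 1.42.0 and limma 3.58.1 were alternatives. The code was tested on simulated data. Libraries of a site differed far beyond sampling noise (chi-square per degree of freedom 86.5 to 159.8). The 2 annotation columns not used held no sample.

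Lists were matched by best-hit name and, where a list named one, by protein domain, which also let in features without a best hit. The members, the 33 lists and the 4 further ones marked as such were chosen with earlier results of these data known. Named features had at least 5 CPM at the higher site, a log2 difference of 1 or more either way and no overlap: up to 3 a list by p, the 8 largest differences each way, the 8 smallest p, and, without conditions, the 10 most read; others named are members of the 4 lists or were picked after their values were seen. Counting error is small for features with many reads, where the number of trees limits precision. Groups with very low CPM rest on few reads, so counting error adds to the uncertainty of their log2 differences.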

Additional observations from a re-analysis of the deposited data

Results flagged for a closer look

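Over all tested features, 123 had every spring library of Ronda above those of Yunquera and every autumn library below them. Among the features named in this report, 3 did so. The site difference in spring exceeded that in autumn by 2.77 on the log2 scale for HSP17.7 (Gene_7362; edgeR adjusted p = 0.308, DESeq2 adjusted p = 0.000186), by 2.53 for HSP23 (Gene_12495; 0.332 and 0.000718) and by 2.09 for CYP707A4 (Gene_40730; 0.334 and 0.0038). Tree 4 held the highest spring level of all 3.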

How the results depend on the processing

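The count of features called for the site difference was 0 with RLE size factors, without the filter on low counts, with the set-aside library put back, in the 5 spring libraries alone and with the individual number as a fixed replicate block. It was 614 in DESeq2, 5 without both needle libraries of tree 1 and 2 in limma with the tree as a random replicate block; leaving out 1 spring library gave 0 to 8. The cause of these differences was not tested. For the interaction DESeq2 called 221 and every other setting run 0, leave-one-out fits included (0 to 0). Features apart and higher numbered 1428 and apart and lower 1596 with the set-aside library put back, and 3350 to 5116 and 3403 to 5146 with 1 library left out, where fewer libraries overlap less often. The individual numbers do not pair the sites: deviations of same-numbered libraries correlated at 0.0685 and 0.0587. Deviations of the same tree in both harvests correlated at -0.304 for tree 1 and at 0.237, 0.416, 0.457 and 0.53 for trees 2 to 5. The main edgeR fit and DESeq2 took libraries of a tree as independent, so their p-values leave out the repeated trees. This holds for the interaction and, through the shared spread, for the site difference in spring. Features named because the sites overlapped changed sign around 0, none past the test. With the set-aside library put back the log2 differences were -0.15 for Gene_4442, 0.29 for Gene_3540, -0.12 for Gene_13471 and -0.13 for Gene_15940, and without both libraries of tree 1 they were -0.11 for Gene_4442 and -0.08 for Gene_17917. With 1 library left out they ran from -0.11 to 0.22 for Gene_4442, from -0.38 to 0.23 for Gene_3540, from -0.08 to 0.16 for Gene_17917, from -0.19 to 0.15 for Gene_7694, from -0.06 to 0.23 for Gene_15940 and from -0.33 to 0.04 for Gene_10637. Of the most-read features named, RCA1 (Gene_3029) and FBA1 (Gene_4041), which also overlapped, changed sign under some settings too; the other features named kept theirs in every setting run. List medians moved by more than their spread in 106 of 481 recomputations. With 2 against 3 trees, a single tree decides many values.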
